A study of Rattus norvegicus with 10 samples.

Results

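Genes of the MHC class I processing pathway were examined in messenger RNA sequencing of the rat hippocampal CA3 and dentate gyrus 3 months after traumatic brain injury (TBI). The 10 genes were B2m, Tap1, Tap2, Tapbp, Psmb8, Psmb9, Psmb10, Psme1, Psme2 and Erap1. They were chosen by name for their role in the pathway, with earlier results of these data known. The RefSeq RNA record with the highest mean count stood for each. A record was matched for 9 of the 10 among 32041 RNA records, 1 record a gene, and all 9 passed the filter on low counts that left 22431 records for testing. Erap1, the endoplasmic reticulum aminopeptidase that trims peptides, was not analysed here.

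The 5 TBI rats received lateral fluid percussion, a pressure pulse of 3.32 atm on average, onto the intact dura through an opening in the skull over the left parietal lobe. The 5 sham rats underwent the same anaesthesia and craniectomy without the pulse, so both groups carried the surgery. All were adult male Sprague-Dawley rats with no genetic change, and each library came from the left hippocampus of 1 rat. The injured rats were taken from the survivors of the procedure and were not monitored by EEG, so they form a group defined by injury and not by recorded seizures.

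MHC class I molecules show peptides from inside a cell at its surface. The immunoproteasome, in which the inducible subunits Psmb8, Psmb9 and Psmb10 take the places of the constitutive Psmb5, Psmb6 and Psmb7, cuts proteins into peptides, and the PA28 activator made of Psme1 and Psme2 opens the core. The Tap1 and Tap2 transporter carries the peptides into the endoplasmic reticulum, where tapasin (Tapbp) helps load them onto a heavy chain paired with beta-2 microglobulin (B2m). Interferon is the best known inducer of these genes, through factors that include Irf1 and Irf9, and in the resting brain the pathway is low in neurons and more active in microglia and endothelium.

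Stretches of the promoters are shown because most of the members share, beyond their role, the core of the interferon-stimulated response element, a motif bound by IRF factors. A window from 250 bases before to 50 bases after the RefSeq start (build GRCr8) was searched on both strands for this core, GAAANNGAAA. The core was found in the windows of 7 of the 9 members that had one, B2m, Tap1, Tap2, Tapbp, Psmb8, Psmb10 and Psme2. It was found in 3.92% of 33469 promoters and in 0 of the 5 genes listed as constitutive counterparts (Psmb5, Psmb6, Psmb7, Psme3 and Psme4). In these stretches, written 5′ to 3′ on the strand of the gene, capitals mark the core. In Tap1 and Psmb8 it lies on the opposite strand and is printed as its reverse complement, and in Tapbp 2 matches overlap.
B2m (chr3:129549150-129549219, plus strand): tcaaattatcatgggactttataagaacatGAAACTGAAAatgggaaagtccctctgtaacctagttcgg
Tap1 (chr20:4668625-4668694, minus strand): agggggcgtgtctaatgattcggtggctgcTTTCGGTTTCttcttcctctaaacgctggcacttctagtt
Tap2 (chr20:4652298-4652367, minus strand): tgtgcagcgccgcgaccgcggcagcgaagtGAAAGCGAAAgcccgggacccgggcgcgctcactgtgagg
Tapbp (chr20:4967872-4967933, minus strand): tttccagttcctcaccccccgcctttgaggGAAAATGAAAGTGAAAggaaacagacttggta
Psmb8 (chr20:4657026-4657065, minus strand): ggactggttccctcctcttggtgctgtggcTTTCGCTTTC
Psmb10 (chr19:50743287-50743395, minus strand): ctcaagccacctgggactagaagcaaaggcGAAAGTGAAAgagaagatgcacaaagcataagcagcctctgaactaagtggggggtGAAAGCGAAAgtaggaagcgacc
Psme2 (chr15:33052765-33052834, minus strand): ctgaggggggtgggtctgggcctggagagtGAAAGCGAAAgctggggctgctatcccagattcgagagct

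Psmb10 held 2 separate matches and Psmb9 and Psme1 held none in this window. The starts of Psmb9 and Tap1 lie head to head, 457 bases apart, and the match in the Tap1 window lies 336 bases from the start of Psmb9, outside the Psmb9 window. The same windows were searched for the gamma interferon activation site, TTCNNNGAA, which was found in 1 member, Psmb8, apart from its interferon core, against 8.87% of all promoters. Of the class I heavy chain genes, 30 had a window, of which 3 (RT1-S2, RT1-S3 and RT1-N3) held the interferon core and 2 (RT1-M1-5 and RT1-M3-1) the activation site. A match describes letters and is no evidence of binding.

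Between 23425817 and 31671838 counts fell on RNA records in each library. Sham replicates 4 and 5 had 59.0% and 58.5% of their counts on ribosomal RNA, against 12.5% to 26.2% in the other 8 rats. Levels are given as CPM, counts scaled to a common library size after adjustment by TMM, a scaling that sets the bulk of genes equal between libraries. Groups were compared with edgeR's quasi-likelihood test, and p-values were adjusted by the Benjamini-Hochberg method over all 22431 records.

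Of the 9 genes, 8 had a higher fitted level in TBI than in sham rats, and 4 of them (B2m, Tapbp, Psmb9 and Psmb10) had an unadjusted p under 0.05, against 4.89% of all records tested. None of the 9 was lower at that threshold, against 3.0% of all records. The median log2 change of the 9 was 0.29, against -0.008 over all records, of which 47.8% lay above 0. No member passed an adjusted p of 0.05, which 0.0% of all records passed, and the smallest adjusted p of any record was 0.477. Groups that did not overlap, with every TBI rat above every sham rat, were seen for Psmb10 alone among the 9, against 0.499% of all records. With the ribosomal RNA share of each library as a covariate 0 of the 9 had an unadjusted p under 0.05, and without sham replicate 3 there were 7. At that threshold 2.08% of all records were higher with the covariate and 7.05% without sham replicate 3. Sham replicate 3 was the highest sham rat in 6 of the 9 genes, so the count without it is no support for a difference.

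**Figure D1:**
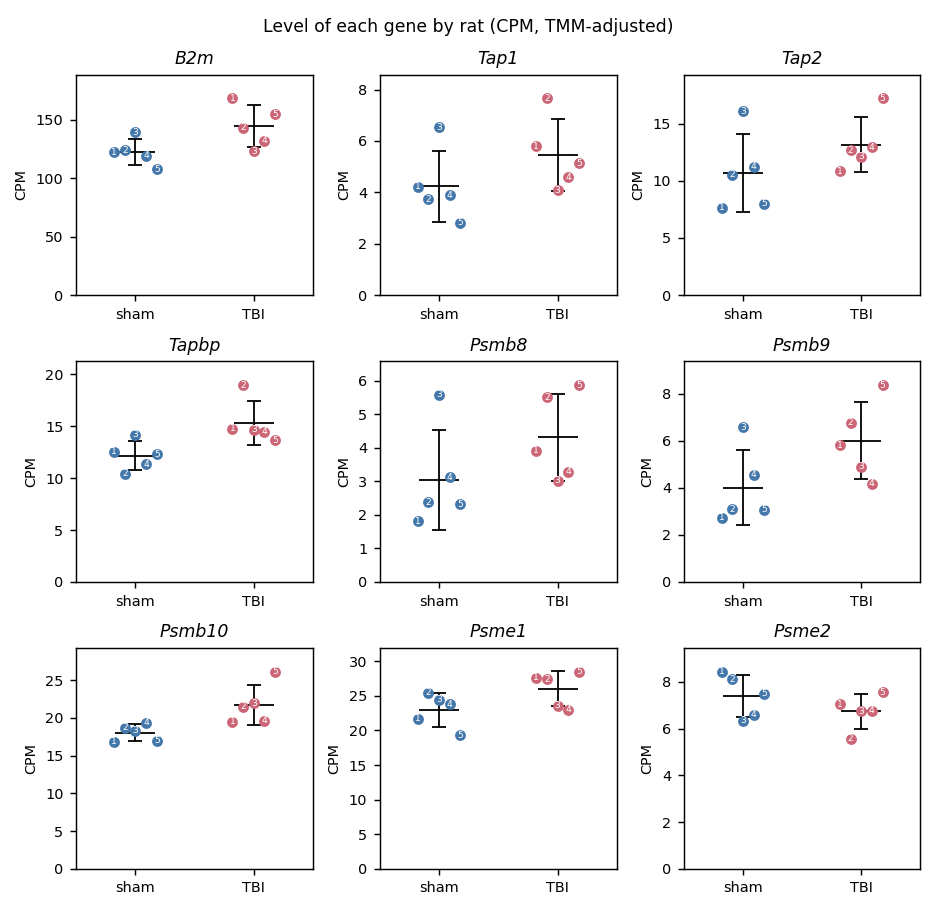
Level of each gene in CPM on the vertical axis, by group. Points are rats, numbered by replicate, and bars show the mean with 1 SD (n = 5). Psmb10 shows separate groups, and sham replicate 3 stands at the top of the sham rats in 6 of the 9 panels.

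B2m is the light chain that every classical class I molecule needs. It was at 122.2, 123.7, 139.0, 119.2 and 107.7 CPM in sham replicates 1 to 5 and at 168.3, 143.2, 123.0, 132.0 and 154.7 CPM in TBI replicates 1 to 5. TBI replicates 1, 2 and 5 lay above every sham rat, and TBI replicates 3 and 4 lay within the sham range. The mean was 122.4 ± 11.2 CPM in sham and 144.2 ± 17.97 CPM in TBI rats (SD, n = 5). The log2 change was 0.24 (SE 0.0916, unadjusted p = 0.0185, adjusted p = 0.553).

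The heavy chains that pair with B2m come from the RT1 complex, the rat MHC, whose class I genes are so alike that short reads can be split between their records, so each value is uncertain. Records of 34 symbols were matched, 36 in all, and 29 were tested. The log2 change was above 0 for 24 of them, with a median of 0.30. At an unadjusted p under 0.05, 6 of the 29 were higher and 0 lower, against 4.89% and 3.0% of all records. The summed level of the heavy chains was 169.8 ± 28.5 CPM in sham and 213.7 ± 22.3 CPM in TBI rats (SD, n = 5), with a range of 146.4 to 216.7 CPM and 191.2 to 243.0 CPM. The groups overlapped, since sham replicate 3, at 216.7 CPM, lay above TBI replicates 1, 3 and 4, while the other 4 sham rats lay below every TBI rat.

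RT1-A3 was at 6.61 to 8.70 CPM in sham and at 9.89 to 13.0 CPM in TBI rats, so the groups did not overlap, with a log2 change of 0.45 (SE 0.108, unadjusted p = 0.000519, adjusted p = 0.477). RT1-A1, one of the 4 heavy chain records with the highest mean count, was at 10.0 to 17.1 CPM in sham and 14.4 to 19.6 CPM in TBI rats, with 4 of 5 TBI rats above every sham rat and a log2 change of 0.42 (SE 0.124, unadjusted p = 0.00333, adjusted p = 0.483). Both are on the study's own list of genes altered in this model. That list was drawn from rats of this series, so they are not independent evidence of a direction. It took an unadjusted p under 0.001 and, by the methods, 3 controls, so its threshold and rats differ from those used here. None of the 9 members is on it. The other 3 most abundant records overlapped between groups. RT1-S3 differed by 0.30 on the log2 scale (SE 0.155, unadjusted p = 0.0744), RT1-A2 by 0.42 (SE 0.345, unadjusted p = 0.251) and RT1-CE16 by 0.55 (SE 0.432, unadjusted p = 0.236). RT1-A2 and RT1-CE16 were the most variable of the 4 between rats, at 11.6 to 34.1 CPM and 6.76 to 17.8 CPM among sham rats. 1 of the 2 records of RT1-CE5 (log2 change 0.42, unadjusted p = 0.0128) and RT1-CE12 (0.35, unadjusted p = 0.0308) were also among the 6, and the remaining ones were RT1-T24-4 and RT1-CE1.

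Tapbp encodes tapasin, which bridges the transporter and the empty class I molecule. It was at 12.5, 10.4, 14.2, 11.4 and 12.3 CPM in sham replicates 1 to 5 and at 14.8, 19.0, 14.6, 14.5 and 13.6 CPM in TBI replicates 1 to 5. TBI replicates 1 to 4 lay above every sham rat, and TBI replicate 5 lay below sham replicate 3. The mean was 12.2 ± 1.41 CPM in sham and 15.3 ± 2.10 CPM in TBI rats (SD, n = 5), a log2 change of 0.33. Its SE was 0.107 (unadjusted p = 0.00655, adjusted p = 0.487), and Tapbp and Psmb10 had the smallest p of the members.

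Tap1 and Tap2 form the peptide transporter. Tap1 was at 4.21, 3.74, 6.53, 3.88 and 2.81 CPM in sham replicates 1 to 5 and at 5.80, 7.66, 4.08, 4.59 and 5.13 CPM in TBI replicates 1 to 5. Only TBI replicate 2 lay above sham replicate 3, while TBI replicates 1, 2, 4 and 5 lay above the other 4 sham rats. The log2 change of Tap1 was 0.34 (SE 0.206, unadjusted p = 0.122). Tap2 was at 7.62, 10.5, 16.1, 11.2 and 7.998 CPM in sham replicates 1 to 5 and at 10.8, 12.7, 12.1, 12.9 and 17.2 CPM in TBI replicates 1 to 5. Again 1 TBI rat, here replicate 5, lay above every sham rat, and the log2 change was 0.29 (SE 0.190, unadjusted p = 0.149). The sham rats spread widely, with a coefficient of variation of 32.7% for Tap1 and 31.8% for Tap2, against 9.17% for B2m.

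Psmb8, Psmb9 and Psmb10 are the catalytic subunits of the immunoproteasome. Psmb10 was at 16.9, 18.7, 18.3, 19.4 and 17.0 CPM in sham replicates 1 to 5 and at 19.5, 21.5, 21.9, 19.6 and 26.1 CPM in TBI replicates 1 to 5. All 5 TBI rats lay above all 5 sham rats, though TBI replicates 1 and 4 only just exceeded sham replicate 4. The mean was 18.04 ± 1.09 CPM in sham and 21.7 ± 2.67 CPM in TBI rats (SD, n = 5). The log2 change was 0.27 (SE 0.0910, unadjusted p = 0.00792, adjusted p = 0.487). Psmb10 had the tightest sham group of the members, with a coefficient of variation of 6.04%.

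Psmb9 had the largest fitted difference of the 9 genes, 0.58 on the log2 scale (SE 0.258, unadjusted p = 0.0435, adjusted p = 0.621). It was at 2.72, 3.09, 6.56, 4.56 and 3.06 CPM in sham replicates 1 to 5 and at 5.80, 6.76, 4.90, 4.18 and 8.37 CPM in TBI replicates 1 to 5. TBI replicates 2 and 5 lay above every sham rat, and sham replicate 3 lay above the other 3 TBI rats. Psmb8 was at 1.81, 2.37, 5.59, 3.13 and 2.31 CPM in sham replicates 1 to 5 and at 3.91, 5.51, 3.02, 3.29 and 5.88 CPM in TBI replicates 1 to 5. Sham replicate 3 lay above every TBI rat but replicate 5, and the coefficient of variation among sham rats was 49.3% for Psmb8 and 40.0% for Psmb9. The log2 change of Psmb8 was 0.50 (SE 0.310, unadjusted p = 0.138). Psmb8 rested on 37 to 227 counts a rat and Psmb9 on 49 to 323, the fewest along with Tap1 (45 to 288), while B2m had 1724 to 5974.

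Psme1 and Psme2 encode the alpha and beta chains of PA28, and they lay on opposite sides of 0. Psme1 was at 21.7, 25.4, 24.5, 23.8 and 19.3 CPM in sham replicates 1 to 5 and at 27.6, 27.4, 23.6, 23.0 and 28.5 CPM in TBI replicates 1 to 5. TBI replicates 1, 2 and 5 lay above every sham rat, and the log2 change was 0.18 (SE 0.0916, unadjusted p = 0.0646). Psme2 was at 8.43, 8.12, 6.34, 6.59 and 7.50 CPM in sham replicates 1 to 5 and at 7.05, 5.56, 6.75, 6.77 and 7.56 CPM in TBI replicates 1 to 5. No TBI rat lay above every sham rat. Its log2 change was -0.14 (SE 0.113, unadjusted p = 0.232), the one value below 0 among the 9. It lay above 0, at 0.35, when libraries were scaled by total counts, a scaling under which the median of all records was 0.50.

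The rats were also ordered by the level of the 9 genes together. When each gene's log2 CPM was centred on its mean over the 10 rats and averaged over the 9 genes, TBI replicates 5 and 2 came first, at 0.36 and 0.29. Sham replicate 3 came next, at 0.22, ahead of TBI replicate 1 at 0.15. TBI replicates 4 and 3 lay near 0, at -0.014 and -0.021, and the other 4 sham rats came last, at -0.11 for replicate 4, -0.20 for replicate 2, -0.31 for replicate 1 and -0.37 for replicate 5. Sham replicate 3 thus lay among the TBI rats, though not for every gene. Its centred value was 0.47 to 0.70 for Tap1, Tap2, Psmb8 and Psmb9, and 0.008 to 0.07 for B2m, Tapbp and Psme1. For Psmb10, at -0.11, it lay below every TBI rat, and Psme2 did not follow the order.

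**Figure D2:**
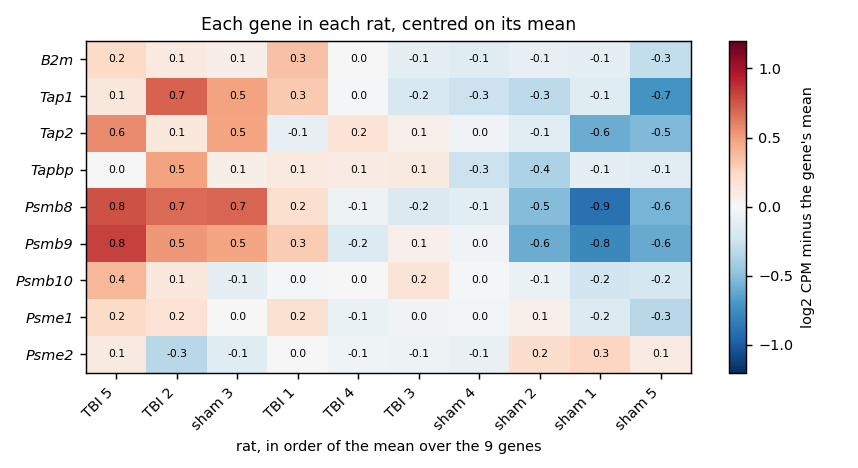
Log2 CPM of each gene (rows) in each rat (columns) minus the mean of the gene over the 10 rats, with rats ordered by the mean over the 9 genes. Red is above and blue below the mean, and sham replicate 3 stands in the third column, between TBI replicates 2 and 1.

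Without sham replicate 3 the unadjusted p was under 0.05 for 7 of the 9 genes, in a fit where the share of all records higher at that threshold also grew, to 7.05%, and the log2 change grew most for the Psmb8, Psmb9, Tap1 and Tap2 genes. It became 0.89 for Psmb8 (unadjusted p = 0.000983), 0.87 for Psmb9 (unadjusted p = 0.000561), 0.56 for Tap1 (unadjusted p = 0.00575) and 0.50 for Tap2 (unadjusted p = 0.00316). It stayed close to its value in all rats for Psmb10, at 0.28 (unadjusted p = 0.0131). No gene passed the adjusted threshold in this fit. Sham replicate 3 was the highest sham rat in 6 of the 9 genes, so leaving it out widens their differences by construction. The fit without it is therefore no support for a difference. With the ribosomal RNA share as a covariate the 8 changes above 0 were smaller, up to 0.31 for Psmb9, and Psme2 moved further below 0, to -0.21. The covariate gave 0.15 for B2m, 0.17 for Psmb10 and 0.30 for Tapbp (unadjusted p = 0.0582). Leaving out the 2 sham rats richest in ribosomal RNA kept Tapbp (0.31, unadjusted p = 0.0299) and Psmb10 (0.28, unadjusted p = 0.0199) under 0.05 and no other member, against 3.3% of all records. Psmb9 kept a change of about the same size in that fit, 0.55, with an unadjusted p of 0.116.

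**Figure D3:**
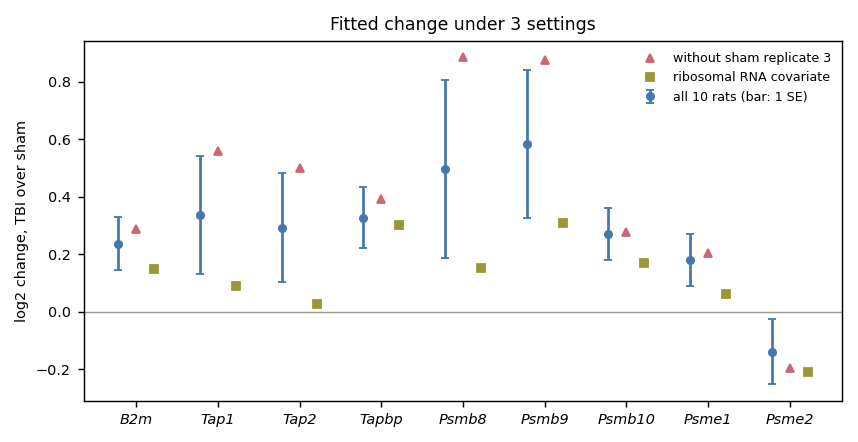
Fitted log2 change, TBI over sham, of each gene in all 10 rats (circles, bars of 1 SE), without sham replicate 3 (triangles) and with the ribosomal RNA share of each library as a covariate (squares). Psmb8 moves from 0.50 to 0.89 without sham replicate 3 and to 0.15 with the covariate.

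To compare the inducible subunits with the ones they replace, and the PA28 chains with Psme3, counts were set against each other within each library. This takes library size, and the ribosomal RNA share as a matter of scaling, out of the value. Other differences between libraries stay in it. Transcript lengths differ, so only rats are compared. The ratio of Psmb10 to Psmb7 was 12.9, 14.9, 16.6, 14.3 and 15.1 counts per 100 in sham replicates 1 to 5 and 18.4, 20.01, 18.3, 16.4 and 21.8 counts per 100 in TBI replicates 1 to 5. Only sham replicate 3 lay above a TBI rat, replicate 4. The difference was 0.36 on the log2 scale (two-sided exact permutation p = 0.0159, adjusted over the 5 ratios 0.0794), and 0.00794 is the smallest p this test can give.

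For Psmb9 to Psmb6 the ratio was 13.6 ± 5.03 counts per 100 in sham and 21.2 ± 5.73 in TBI rats (SD, n = 5). All 5 TBI rats lay above the sham mean and 3 above every sham rat, a log2 difference of 0.66 (two-sided exact permutation p = 0.0556, adjusted 0.119). For Psmb8 to Psmb5 it was 2.73 ± 1.31 and 3.85 ± 1.08 counts per 100 (SD, n = 5), a log2 difference of 0.56 (two-sided exact permutation p = 0.135, adjusted 0.169). The ratio of Psme1 to Psme3, the subunit of another proteasome activator, differed by 0.21 on the log2 scale (two-sided exact permutation p = 0.0714, adjusted 0.119). That of Psme2 to Psme3 differed by -0.11 (two-sided exact permutation p = 0.341, adjusted 0.341). None of the 5 ratios passed 0.05 after adjustment. Without sham replicates 4 and 5 the log2 difference was 0.36 for Psmb10 to Psmb7, 0.61 for Psmb9 to Psmb6 and 0.50 for Psmb8 to Psmb5. The two-sided exact permutation p of these was 0.0357, 0.143 and 0.268, unadjusted. In the same rats Psme1 to Psme3 differed by 0.14 (exact permutation p = 0.25) and Psme2 to Psme3 by -0.16 (exact permutation p = 0.179).

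**Figure D4:**
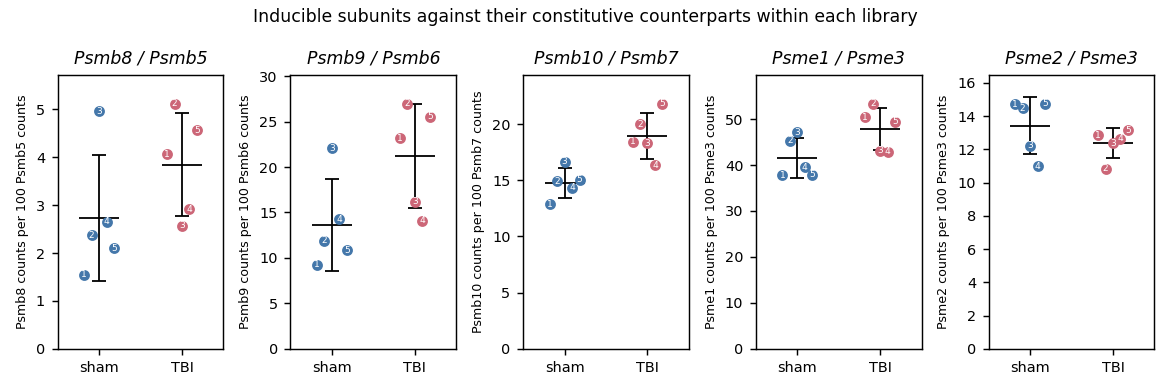
Counts of each inducible subunit per 100 counts of its constitutive counterpart, and of each PA28 chain per 100 counts of Psme3, in the same library, by group. Points are rats, numbered by replicate, with the mean and 1 SD (n = 5). For Psmb10 over Psmb7, 4 of 5 TBI rats lie above every sham rat.

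The genes listed as constitutive counterparts had fitted changes near 0. The log2 change was 0.01 for Psmb5 (SE 0.0833), -0.03 for Psmb6 (SE 0.0895), -0.10 for Psmb7 (SE 0.0792) and -0.02 for Psme3 (SE 0.0724), and none of the 5 on that list, Psme4 included, had an unadjusted p under 0.05. The same held for all 14 tested genes of the rest of the 20S core and its assembly factors, whose median log2 change was -0.07. The smallest p among them was that of the assembly factor Psmg2 (log2 change -0.19, unadjusted p = 0.0614).

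Over all 10 lists of pathway genes outside the members, 97 records were tested. Of these, 14 were higher and 1 lower at an unadjusted p under 0.05, against 4.89% and 3.0% of all records, and 0 passed the adjusted threshold. Among 9 genes of peptide loading and folding in the endoplasmic reticulum only Tapbpl, a tapasin relative that edits peptides, was past the unadjusted threshold. It was at 3.43 to 5.36 CPM in sham and 4.71 to 6.92 CPM in TBI rats, with 4 of 5 TBI rats above every sham rat and a log2 change of 0.50 (SE 0.138, unadjusted p = 0.00193, adjusted p = 0.478). Tapbpl is also on the study's list, as is Irf9 below, so neither is independent evidence of a direction. The median of those 9 genes, which include the chaperones Calr and Canx, was -0.02. Of 8 cytosolic and other peptidases, Lap3, a leucine aminopeptidase, was higher (0.23, unadjusted p = 0.0283) and Blmh, bleomycin hydrolase, was lower (-0.22, unadjusted p = 0.0200). Of 5 class I-like molecules, all above 0, Fcgrt, the neonatal Fc receptor heavy chain that also pairs with B2m, was higher (0.28, unadjusted p = 0.0106).

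**Figure D5:**
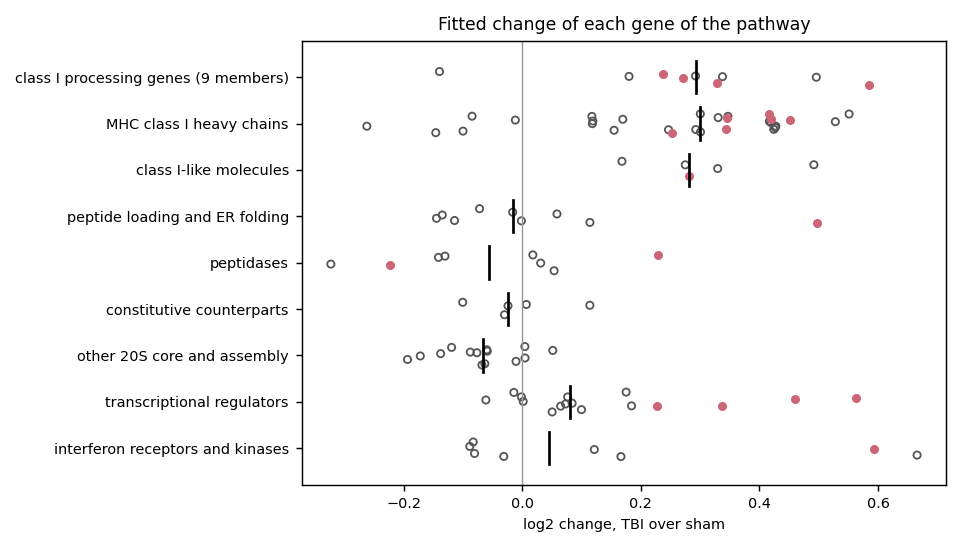
Fitted log2 change, TBI over sham, of each tested gene in 9 groups of the pathway. Filled points have an unadjusted p under 0.05 and short vertical lines are group medians, at 0.29 for the 9 class I processing genes, 0.30 for the heavy chains and -0.02 for the constitutive counterparts.

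Among 16 tested regulators of the pathway, 4 were higher and 0 lower at an unadjusted p under 0.05, against 4.89% and 3.0% of all records. The median log2 change of the 16 was 0.08. Irf9, the DNA-binding part of the complex that acts in type I interferon signalling, was at 5.68 to 6.87 CPM in sham and 6.52 to 13.1 CPM in TBI rats, a log2 change of 0.56 (SE 0.163, unadjusted p = 0.00319, adjusted p = 0.483). TBI replicates 1, 2 and 5 lay above every sham rat. Nfkb2 (0.34, unadjusted p = 0.0152) was also among the 4, as was Irf8, a factor of microglia and other myeloid cells (0.46, unadjusted p = 0.0461). Irf1 differed by -0.01 on the log2 scale (SE 0.123). Of 8 interferon receptors, kinases and their inhibitors, Socs1, an inhibitor of JAK signalling, was higher (0.59, unadjusted p = 0.0174).

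The ligands were at or near the floor. Ifng and Ifnb1 had 0 counts in all 10 rats, which allows up to 3 counts a library. Tnf had 2 to 11 counts a rat and a log2 change of -0.26 (unadjusted p = 0.508). Of the genes of cells that recognise class I, 2 of 11 matched passed the filter. The T cell receptor chain Cd3e ranged from 1 to 94 counts, with a log2 change of 2.06 (SE 0.993, unadjusted p = 0.0676), while Cd8a had 0 to 5 counts and Cd8b 0 to 4. Neither a presence nor an absence of CD8 T cells could be read at these counts.

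Some markers of microglia and astrocytes were also higher in TBI rats at the unadjusted threshold, at which 4.89% of all records were higher and 3.0% lower. In bulk tissue, more cells of a type and more RNA per cell cannot be told apart. Of 12 microglial markers, 5 were higher and 0 lower at an unadjusted p under 0.05, among them Aif1, Tyrobp, C1qa and C1qb, and the summed level was 336.0 to 496.4 CPM in sham and 395.6 to 532.1 CPM in TBI rats. Sham replicate 3 had the highest sum of the sham rats and TBI replicate 3 the lowest of the TBI rats. Of 8 astrocyte markers, 3 (Gfap, Aldh1l1 and S100b) were higher, with sums of 2999 to 3969 CPM in sham and 3285 to 4839 CPM in TBI rats, and again sham replicate 3 was highest and TBI replicate 3 lowest within their groups. No marker passed the adjusted threshold, and Gfap and Tyrobp are on the study's list of altered genes. The part of these cells in the values of the 9 genes was not tested.

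Of 8 tested endothelial markers 0 were past the unadjusted threshold in either direction (71.9 to 95.3 CPM in sham and 79.2 to 94.4 CPM in TBI rats, with Ly6c at 0 in every rat), and the same was so for 8 neuronal, 3 dentate granule cell and 5 CA3 markers. The neuronal and regional markers were present in every rat, as the tissue label has it, apart from low counts of Tdo2, Coch and Iyd. The dentate granule cell markers varied widely, with sums of 54.5 to 190.0 CPM in sham and 74.8 to 184.9 CPM in TBI rats. Prox1 was at 9.55 CPM in sham replicate 1 and at 25.7 to 41.4 CPM in the other sham rats. The CA3 markers summed to 1430 to 1752 CPM in sham and 1330 to 1744 CPM in TBI rats. Leukocyte markers summed to 6.80 to 8.74 CPM in sham and 8.01 to 14.2 CPM in TBI rats, of which Cd4 alone of 5 tested was higher, and Cd3d, Cd3g and Cd8a had at most 5 counts a rat. Of 8 markers of meninges and fibroblasts, 4 (Col1a1, Col1a2, Igf2 and Slc6a13) were higher and 0 lower. Of the 8 changes 7 lay above 0, while that of Lum was -0.95 (SE 0.682, unadjusted p = 0.199). The 8 markers summed to 9.81 to 23.9 CPM in sham and 17.9 to 28.3 CPM in TBI rats. In the lists of choroid plexus and ependyma, blood and oligodendrocytes, 2 of 6 (Folr1 and Foxj1), 1 of 4 (Alas2) and 1 of 8 (Olig2) were higher. Of all records, 4.89% were higher and 3.0% lower at that threshold. Cd4 and Folr1 are on the study's list of altered genes. The part of the cells of these lists in the values of the 9 genes was not tested either.

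The genes whose level over the 10 rats was most like the mean of the 9 were found among 12275 symbols, as a description. They were Igf2, a growth factor of meningeal and vascular cells (Pearson r = 0.972, Spearman rho = 0.976), Ntsr2, a neurotensin receptor of astrocytes (0.947 and 0.952), S100b (0.946 and 0.964), Cib1 (0.944 and 0.927), Gsta1 (0.943 and 0.927) and Aldh2 (0.942 and 0.952). These 10 points share the group difference, the library depth and the cell makeup of each rat. Igf2 was at 3.25 to 6.21 CPM in sham and 4.87 to 7.56 CPM in TBI rats, with sham replicate 3 highest among the sham rats and TBI replicate 3 lowest among the TBI rats.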

How the data were processed

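Messenger RNA was measured in 5 sham and 5 TBI rats, grouped by their labels. The methods state 3 controls for the messenger RNA profiling of this model, the labels give 5, and all 5 were used. Which 3 those were is not given in the sources used here. The authors deposited raw counts of reads of 36 bases per RefSeq RNA record, with no normalization or pooling. Their methods name BWA, the rn4 build and Ensembl transcripts (version 66), and how this goes with RefSeq rows was not settled. Strand in counting is not given in the sources used here. Of 32043 rows, 2 that name no record were left out of library sizes. Unmapped reads were 12.8% to 26.1% of reads. Symbols came from the GRCr8 RefSeq table (54.2% of records), used for names only. Promoter sequences are from RefSeq, GRCr8.

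Records with a total of at least 44 counts, the 30th percentile, were tested with edgeR 4.0.16 (quasi-likelihood, robust, TMM) in R 4.3.3. Alternatives used DESeq2 1.42.0, limma 3.58.1 with voom, other scalings, filters and samples. The log2 CPM used a prior count of 2, and ratios a pseudocount of 0.5. The test was tested on simulated data. No 2 libraries agreed within sampling noise over 45 pairs (lowest chi-square per degree of freedom 9.02). Members, gene lists and alternatives were chosen with earlier results of these data known. Named genes were the members, in each list up to 4 genes with an unadjusted p under 0.05 (else the smallest p), the 4 most abundant heavy chain records, the counterparts, and the 6 symbols most like the members. Other genes are named as values only, among them the remaining heavy chains and markers past the threshold, Irf1, and receptors or ligands at low counts, chosen after their values were seen. Some genes of the lists are counted but not reported here by name. Figures were drawn with matplotlib 3.10.9.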

Additional observations from a re-analysis of the deposited data

Results flagged for a closer look

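Of 28 groups of 5 rats examined for a rat far from the others, 1 was noted, where chance gives 1.4 on average. Tapbp in TBI replicate 2 was at 18.97 CPM, against 13.65 to 14.76 CPM in the other 4 TBI rats. Without that rat the other TBI rats still lay above the sham mean of 12.2 CPM.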

How the results depend on the processing

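No paired analysis was possible because the labels give the rats no replicate numbers shared between groups. Psmb10 and Tapbp kept their direction under all 22 alternative fits and lost an unadjusted p under 0.05 in 1 of them each, the one with ribosomal share as a covariate. Psmb9 lost it in 10 and B2m in 4.

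The number of the 9 genes with an unadjusted p under 0.05 was 4 in all rats. It fell to 0 once the ribosomal share entered as a covariate (2.08% of all records higher) and to 2 when sham replicates 4 and 5 were dropped (3.3%). It reached 8 under scaling by all counts and 8 without sham replicate 3 and TBI replicate 3 together, where 2 passed the adjusted threshold. That last fit leaves out the sham rat highest in 6 of the 9 genes and the TBI rat lowest in 3. It is therefore no support for a difference, and neither is the fit without sham replicate 3 alone. In all other fits, DESeq2 and limma included, 0 of the 9 passed the adjusted threshold. Leaving out 1 rat gave 2 (without TBI replicate 1 or sham replicate 5) to 7 (without sham replicate 3, 7.05% of all records). Where no share of all records is given it was not taken, and the count cannot be read as particular to the members. The number was 3 to 5 in the other settings. It was 3 to 5 in the other settings. Their median log2 change was 0.78 under scaling by all counts, which moved the median of all records to 0.50 (0.14 with counts outside ribosomal RNA), 0.15 with ribosomal share as a covariate, and 0.21 to 0.39 without 1 rat. Psme2 changed sign, to 0.35 under scaling by all counts and 0.0058 with counts outside ribosomal RNA.

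The 14 pathway genes past the threshold became 5 with the covariate, 6 without sham replicates 4 and 5, 29 under scaling by counts outside ribosomal RNA, 38 under scaling by all counts, 30 without both replicates 3 and 8 (without TBI replicate 5) to 29 (without sham replicate 3) without 1 rat. They were 9 without TBI replicate 2 or sham replicate 2. Of all records, 4.89% were higher in all rats and 2.08% with the covariate. Without sham replicates 4 and 5 it was 3.3%, and without sham replicate 3 it was 7.05%. The share of all records was not taken in the other fits, so those counts cannot be read as particular to the pathway. For the ratio of Psmb8 to Psmb5 the log2 difference was 0.94 without both replicates 3 (exact permutation p = 0.0286) and 0.39 to 0.81 without 1 rat, with p = 0.0317 by the exact test without sham replicate 3. For Psmb9 to Psmb6 it was 0.53 to 0.85 (exact p = 0.0238 without sham replicate 3 and 0.0317 without TBI replicate 4). For Psme1 to Psme3 it was 0.17 to 0.25 (exact p = 0.0476 without sham replicate 3), for Psmb10 to Psmb7 0.31 to 0.41 and for Psme2 to Psme3 -0.18 to -0.064. Leaving out sham replicate 3, the highest sham rat in 6 of the 9 genes, is no support for a difference in a ratio either. The causes were not tested. Psmb8, Psmb9 and Tap1 rest on fewer than 50 counts in their lowest library, which limits their precision.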
